A study of Mus musculus with 10 samples.

Results

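Endothelial cells with counts of Fabp4, Aqp7, Timp4 and Tcf15, a marker set of adipose-type capillaries, were examined in axillary lymph nodes of the mouse. The capillary label did not hold for all of them: 59 of the 123 lay in a cluster led by Cd36, Gpihbp1 and Pparg, 11 in an arterial and 2 in a venule cluster, so they are called members here. They were chosen from their own counts: droplets with at least 500 UMIs (unique molecular identifiers, that is counted transcripts) and at most 10% mitochondrial UMIs, 2 or more UMIs over the endothelial genes Pecam1, Cdh5 and Flt1, none of Ptprc (the pan-leukocyte gene) or Prox1 (the lymphatic regulator), and 5 or more UMIs over Fabp4, Aqp7, Timp4 and Tcf15 with at least 2 of these 4 genes detected. They made up 123 of 1032 droplets that met the endothelial conditions (11.9%, exact Clopper-Pearson 95% interval 10 to 14.1%), among 2540 cells of the stromal library that passed the quality limits and 53477 such cells in the 5 gene libraries. All 123 came from the stromal library, a 10x Genomics 3' library whose label names endothelial cells and fibroblasts.

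The nodes came from 8-week-old wild-type female BALB/C mice in 4 conditions, each marked by 1 hashtag antibody. Naive mice were untreated, and LPS mice were collected 72 hours after a subcutaneous injection. The 4T1 and 67NR mice carried breast cancer cells of these lines, placed in the 4th mammary fat pad 18 days before collection, with tumours of 500 mm3. The hashtags are named CTRL.NDLN, 4T1.pre-met, 67NR and LPS.PL, and were tied to naive, 4T1, 67NR and LPS by those names. The meaning of the endings is not given, the protocol text names LPS and poly(I:C) together for the injected mice, and the treatment label of the stromal sample names only tumour and naive mice. Values given for LPS are therefore those of the cells with the LPS.PL hashtag, and which of the agents they received is not settled by the labels. At least 3 mice were used per condition and no cell can be traced to a mouse, so conditions are compared as shares of cells or summed levels, with no test.

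Capillaries of fat, heart and muscle pass fatty acids from blood lipoproteins to the tissue. Lipoprotein lipase, held on the vessel wall by GPIHBP1, releases the fatty acids, CD36 takes them into the endothelial cell and the binding proteins FABP4 and FABP5 carry them, with the nuclear receptor PPARG as a known regulator of these genes. AQP7 is a channel for glycerol and water, TIMP4 an inhibitor of matrix metalloproteinases, and TCF15 a basic helix-loop-helix factor known to pair with the homeodomain factor MEOX2 in capillaries that take up fatty acids.

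Aqp7, Timp4 and Cd36 were among the 6 genes with the highest ratios of members to other endothelial droplets, and the 250 bases before their starts are shown because TCF15 is of a factor family that binds E-boxes. The sequences are from RefSeq for GRCm38.p6, which is based on C57BL/6J and not on BALB/C. Each is written 5' to 3' on the gene's strand, with capitals marking the E-box letters CANNTG. All 3 genes lie on the minus strand, and the windows are chr4:41048137-41048386 for Aqp7 (the first of 2 RefSeq starts), chr6:115252206-115252455 for Timp4 and chr5:17835897-17836146 for Cd36, the last of which lies inside the longer Cd36 gene of the GENCODE annotation.
Aqp7: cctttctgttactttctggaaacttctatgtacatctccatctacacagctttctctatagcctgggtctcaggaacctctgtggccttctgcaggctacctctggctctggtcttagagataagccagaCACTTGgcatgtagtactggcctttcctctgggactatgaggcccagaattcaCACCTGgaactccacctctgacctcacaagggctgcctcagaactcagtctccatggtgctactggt
Timp4: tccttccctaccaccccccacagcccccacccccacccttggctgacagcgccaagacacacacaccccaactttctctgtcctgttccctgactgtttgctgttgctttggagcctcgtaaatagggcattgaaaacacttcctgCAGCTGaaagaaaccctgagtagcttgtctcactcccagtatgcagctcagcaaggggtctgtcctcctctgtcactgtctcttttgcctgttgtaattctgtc
Cd36: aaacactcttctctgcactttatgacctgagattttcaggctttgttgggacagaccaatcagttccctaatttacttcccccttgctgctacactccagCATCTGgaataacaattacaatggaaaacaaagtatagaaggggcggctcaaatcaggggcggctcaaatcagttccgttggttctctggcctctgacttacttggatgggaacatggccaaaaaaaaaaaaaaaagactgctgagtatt
The letters CANNTG, which read the same on both strands, occurred 2 times in the Aqp7 window and 1 time each in the Timp4 and Cd36 windows, and 66.2% of 32851 windows of this length held them. They were absent from the windows of Slc28a2, which had a higher ratio than Cd36, and of Rbp7 and Car4. Pparg, Meox2, Cldn15, Mgll and Plin2, also searched, each had a window that held them. The nuclear receptor half-site AGGTCA, searched on both strands, occurred 1 time each in the Aqp7 and Cd36 windows and in 14% of all windows. The direct repeat of AGGNCA with 1 base between the copies, the arrangement that PPARG binds together with RXR, had no match in the 3 windows on either strand, and 0.338% of all windows held it. In the GENCODE annotation of GRCm38 the marker genes lie on separate chromosomes: Fabp4 on chromosome 3 (10204088 to 10208576), Aqp7 on chromosome 4 (41033074 to 41048139), Timp4 on chromosome 6 (115241892 to 115252205) and Tcf15 on chromosome 2 (152143561 to 152149097). Timp4 and Pparg are 108745 bases apart.

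The stromal library held 36622159 UMIs in 3507 barcodes. Members had a median of 5885 UMIs, 2325 detected genes and 1.95% mitochondrial UMIs, and the 909 other droplets that met the endothelial conditions had a median of 10934 UMIs. Of those 909, 385 carried 2 or more UMIs over Pdgfra, Col1a1, Col1a2, Dcn, Rgs5, Cspg4, Adipoq and Plin1, called stromal UMIs here, against 13 of the 123 members. Comparisons are therefore also given for the 110 members and 524 comparators without stromal UMIs, the latter with a median of 7269.5 UMIs. None of the other 4 gene libraries held a member: there were 0 among 197 endothelial droplets of the myeloid and stromal library, which allows a share of up to 1.52%, and 0 among 125 of the mediastinal atlas, which allows up to 2.4%, both taken as 3 counts of the total and not as an exact interval. Of the 197, only 6 were free of stromal UMIs. The stromal library shared 6 to 20 barcodes with each other library.

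Fabp4 was detected in all 123 members, at 4 to 473 UMIs with a median of 99. Tcf15 was detected in 108 members, Aqp7 in 49 and Timp4 in 48. The commonest combination was Fabp4 with Tcf15 alone, in 56 members, and 29 members had all 4 genes. Members held 69.6% of the Fabp4 UMIs of the 1032 endothelial droplets, 94.5% of the Aqp7, 99.2% of the Timp4 and 90.5% of the Tcf15. At the edge of the rule, 5 members had 5 to 9 marker UMIs, with Fabp4 at 488 CPM (CPM, the gene's summed counts scaled to the same total in each group) and no Cd36 UMI. Just outside it, 12 droplets had 2 or more of the genes at 2 to 4 UMIs in all, and 199 had 5 or more UMIs of Fabp4 with none of the other 3. These values chose the cells and are a description only.

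**Figure D1:**
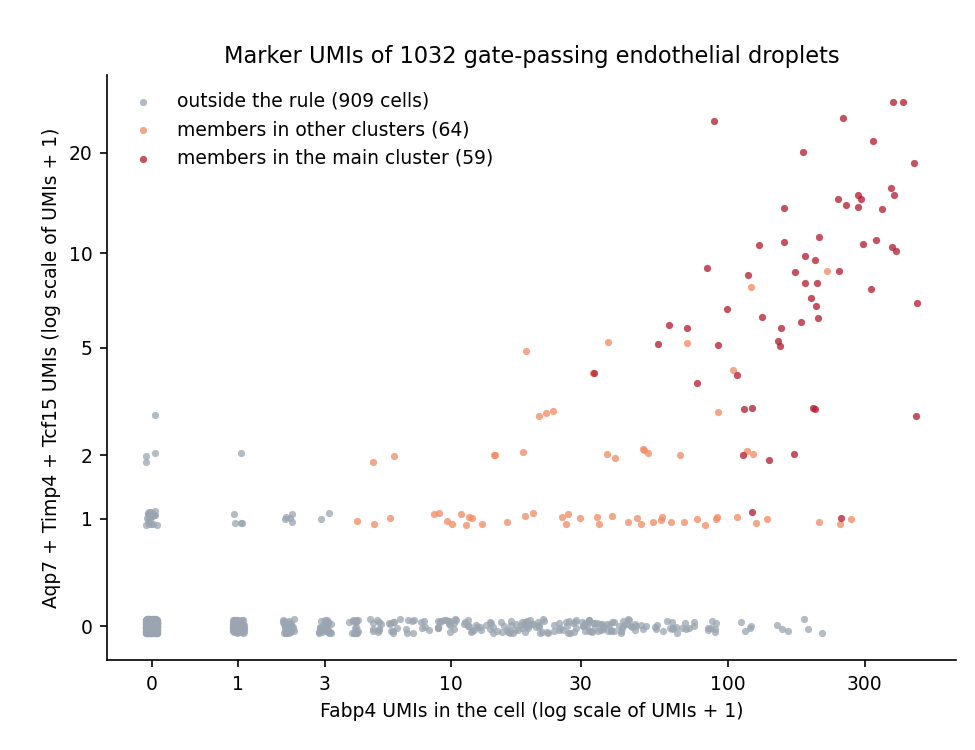
Each point is 1 of the 1032 droplets that met the endothelial conditions, with its Fabp4 UMIs on the horizontal axis and its summed Aqp7, Timp4 and Tcf15 UMIs on the vertical axis, both on a log scale of UMIs + 1 with a small random offset. The 59 members of the main cluster lie at 34 to 473 Fabp4 UMIs, and the 64 members of other clusters reach down to 4.

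The members were not uniform. All 2540 cells were clustered without the 4 markers and the genes of the endothelial conditions, and 59 of the 123 members (48%) fell into a single cluster of 67 cells, called the main cluster here. The other 64 were spread over 4 clusters: 36 in a cluster led by Esm1, Rgcc, Rbp7 and Btnl9, 15 in a cluster led by Npr3 and Lama3, 11 in a cluster led by the arterial genes Gja5, Sema3g, Bmx and Sox17, and 2 in the cluster of high endothelial venule genes (Chst4, Fut7, Glycam1). All 29 members with 4 markers and 20 of the 24 with 3 were in the main cluster, against 10 of the 70 with 2. A second seed and a resolution of 2 each gave a cluster of 66 cells with 58 members, and a resolution of 0.5 gave 107 cells with 69. Of the 8 cells of the main cluster outside the rule, 4 carried Fabp4 and none of the other 3 markers, and 4 carried 1 UMI of Prox1. The 2 members in the venule cluster had 0 Glycam1 UMIs, 343 Fabp4 UMIs and 23 Cd36 UMIs between them, with the venular genes Ackr1 at 858 CPM and Vwf at 715 CPM. Because the genes described next made the clusters, differences between clusters are a description with no test.

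Fabp4 took up 4.15% of the summed UMIs of the main-cluster members and up to 12.3% in a single cell, against 0.599% in the other 64 members. Among the members, Timp4 was nearly limited to the main cluster, with 248 UMIs in 46 of 59 cells against 3 UMIs in 2 of 64. Aqp7 had 93 UMIs in 40 of 59 cells against 11 UMIs in 9 of 64. Tcf15 had 228 UMIs in 51 of 59 cells (755 CPM) against 104 UMIs in 57 of 64 (172 CPM). Of the 56 members with Fabp4 and Tcf15 alone, 3 were in the main cluster. Those 56 met the rule only through Tcf15, so nothing is read from the similar shares of cells with it. Main-cluster members were shallower, at a median of 4842 UMIs against 8147. After each cell was thinned to 2000 UMIs, which left out 3 main-cluster members, Timp4 was seen in 67.9% of the main-cluster members and 0% of the others, and Aqp7 in 39.3% and 1.56%. In the fibroblast gate, with a median of 14856 UMIs before thinning, these shares were 0% and 0.094%. In Prox1-positive endothelial droplets, which the rule leaves out, they were 9.3% and 0.388%. Tcf15 after thinning was seen in 69.6% of the main-cluster members and 37.5% of the other members.

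**Figure D2:**
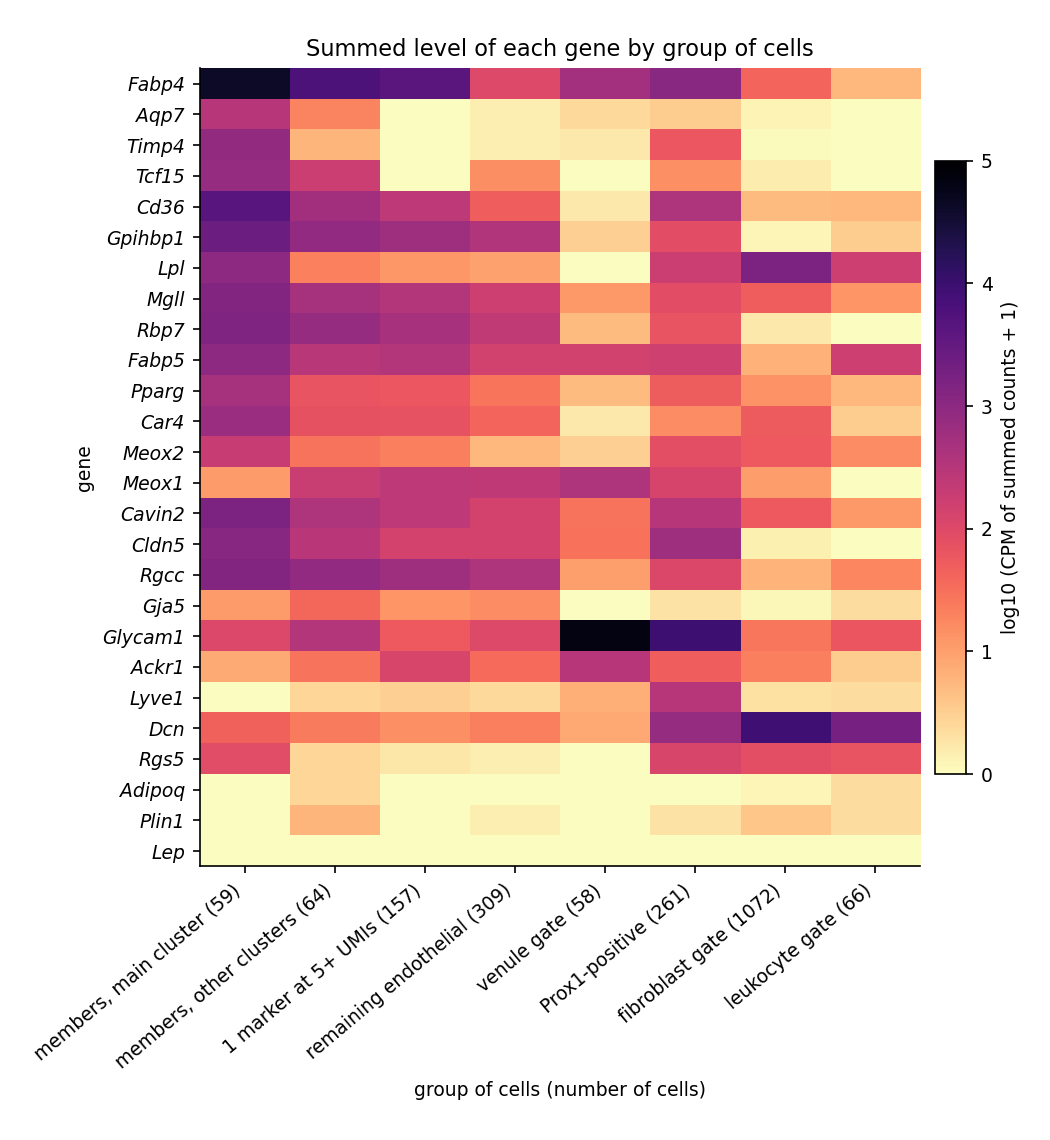
The map shows log10 of CPM + 1 of summed counts for each gene (rows) in 8 groups of cells (columns, with the number of cells). Main-cluster members have the darkest cells for Fabp4 (41453 CPM), Cd36 (4475 CPM) and Gpihbp1 (2429 CPM), while Lpl is darkest in the fibroblast gate (1547 CPM).

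The 36 members of the Esm1 and Rgcc cluster held Fabp4 at 7251 CPM and Cd36 at 609 CPM, against 1834 and 177 CPM in the 167 comparators of that cluster without stromal UMIs. The 11 members of the arterial cluster held Fabp4 at 7528 CPM and Cd36 at 1169 CPM, with Gja5 in 8 of them, against 1446 and 524 CPM in the 27 comparators of that cluster. In the 15 members of the Npr3 cluster Fabp4 was at 2169 CPM and Cd36 at 173 CPM. Aqp7 was found in 8 of the 36, 1 of the 11 and 0 of the 15. The rule counted Fabp4 and Aqp7, so higher levels of them in members than in comparators of a cluster were favoured in advance. They are a description only, and the differences in Cd36 were not tested.

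Set directly against the other 64, the 59 main-cluster members had 128 of 3308 measured genes higher (3.87%) and 357 lower (10.8%). The highest after Timp4 (7.37) were Lpl (5.61), Slc28a2 (4.38) and Cdkn1c (4.12). Among the lowest were Enpp2 (-5.88) and Pde1c (-5.79), a phosphodiesterase gene. The 60 other members without stromal UMIs, set against the 524 comparators, had 179 of 8868 genes higher (2.02%) and 276 lower (3.11%). Among their highest were the arterial genes Alpl (2.69) and Bmx (2.56), and Cd36 was at 2.35.

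Fabp4 was also present outside the members. The 157 droplets with 5 or more UMIs of Fabp4 and no other marker, without stromal UMIs and outside the venule gate (5 or more Glycam1 UMIs and a UMI of Chst4 or Fut7), held it at 3978 CPM, and the 261 Prox1-positive droplets held it at 1085 CPM. The fibroblast gate held 40.2 CPM and the leukocyte gate 4.65 CPM. Set against those 157 droplets, the 110 members had 101 of 6230 genes higher (1.62%) and 129 lower (2.07%), with Lpl at 4.88 and Cd36 at 2.77. The lowest there, chosen after the values were seen, were Hamp (-7.13) and Robo2 (-5.32). Timp4 was found in 56 of the Prox1-positive droplets (59.7 CPM), of which 54 lay in the 2 clusters with most Prox1-positive cells, and the 909 comparators, of which 385 carried stromal UMIs, had 2 Timp4 UMIs in all.

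Of 11664 genes with 50 or more UMIs over members and the 909 comparators, 724 (6.21%) were higher in members by a log2 ratio of at least 1 with an interval that excludes 0, and 1603 (13.7%) were lower. Without stromal-UMI droplets, 241 of 8981 genes (2.68%) were higher and 380 (4.23%) lower. The rule used this contrast, so nothing is read from these shares. Ratios are log2 ratios of CPM of summed counts with an exact binomial 95% interval in brackets, which covers counting error only. The 15 highest against all comparators, Timp4, Aqp7, Tcf15, Slc28a2, Nts, Cd36, Fabp4, Cldn15, Chchd10, Cyp4b1, Cldn5, Spaar, Gpihbp1, Rbp7 and Lmo7, ran from 10.66 to 3.22. Prox1-positive droplets are not among the comparators. They held Cldn5 at 619, Cyp4b1 at 74.8 and Nts at 103 CPM, against 563, 73.9 and 100.3 CPM in the members. Their levels of Cd36 (384), Gpihbp1 (84.7) and Slc28a2 (3.84 CPM) were below those of the members (1861, 1399 and 100.3 CPM). The 15 lowest, among them Igfbp6 (-8.77), Lama2 (-8.33), Postn (-7.79) and Dcn (-7.24), included matrix genes of fibroblasts. Without stromal-UMI droplets the ratio of Dcn was 0.53 (-0.30 to 1.29). Dcn is one of the genes that defined those droplets, so nothing is read from this change.

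Several genes of fatty acid uptake were higher in the members. Cd36, the fatty acid translocase, was at 1745 CPM in members and 91.9 CPM in comparators without stromal UMIs, a log2 ratio of 4.25 (4.09 to 4.40). All 59 main-cluster members had Cd36 UMIs, at 4475 CPM together, against 38 of the other 64, at 556 CPM. Gpihbp1, the anchor of lipoprotein lipase, was likewise detected in all 59, and its ratio of members to comparators was 2.05 (1.93 to 2.16). In the main cluster it was at 2429 CPM, against 885 CPM in the other members. The binding protein gene Fabp5 had a ratio of 1.38 (1.21 to 1.54), the retinol binding protein gene Rbp7 of 2.06 (1.93 to 2.19) and Mgll, a lipase of monoglycerides, of 2.12 (1.96 to 2.27).

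Lpl, which encodes lipoprotein lipase, depended on the comparators. Members held it at 335 CPM and all 909 comparators at 959.8 CPM, a ratio of -1.52 (-1.69 to -1.35), while the fibroblast gate held 1547 CPM. Without stromal-UMI droplets the levels were 321 CPM and 6.71 CPM, and the ratio was 5.58 (5.06 to 6.15). Within the members, 292 of 304 Lpl UMIs lay in 45 of the 59 main-cluster cells, and 12 UMIs lay in 2 of the other 64. The 59 held the fibroblast gene Dcn at 43 CPM, against 8544 CPM in the fibroblast gate, and with the 9 stromal-UMI cells left out the Lpl level of the main cluster was 1017 CPM.

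Without stromal-UMI droplets, 8 of the 23 measured genes of fatty acid uptake and storage were higher in members and 3 lower, with a median ratio of 0.571 against -0.0029 over all measured genes. Of all measured genes, 2.68% were higher and 4.23% lower. The lower genes included Lipg, which encodes an endothelial lipase, and Vldlr, a lipoprotein receptor gene with a ratio of -4.22 (-9.54 to -1.72) on 1 UMI in members. Of 16 measured genes of PPARG and its known targets, 10 were higher and 0 lower, with a median of 1.17. Cd36, Gpihbp1, Lpl, Plin2 and Rbp7 are among the higher genes of both lists. Pparg itself had a ratio of 2.79 (2.45 to 3.12), and Angptl4, an inhibitor of lipoprotein lipase, of 2.79 (2.12 to 3.46) on 43 and 37 UMIs. Of 14 measured genes of fatty acid oxidation, 0 were higher and 0 lower, with a median of 0.26. The ratio of Cpt1a, the entry enzyme of mitochondrial fatty acid oxidation, was 0.29 (-0.33 to 0.86), and that of Hadha was 0.31 (-0.05 to 0.65).

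**Figure D3:**
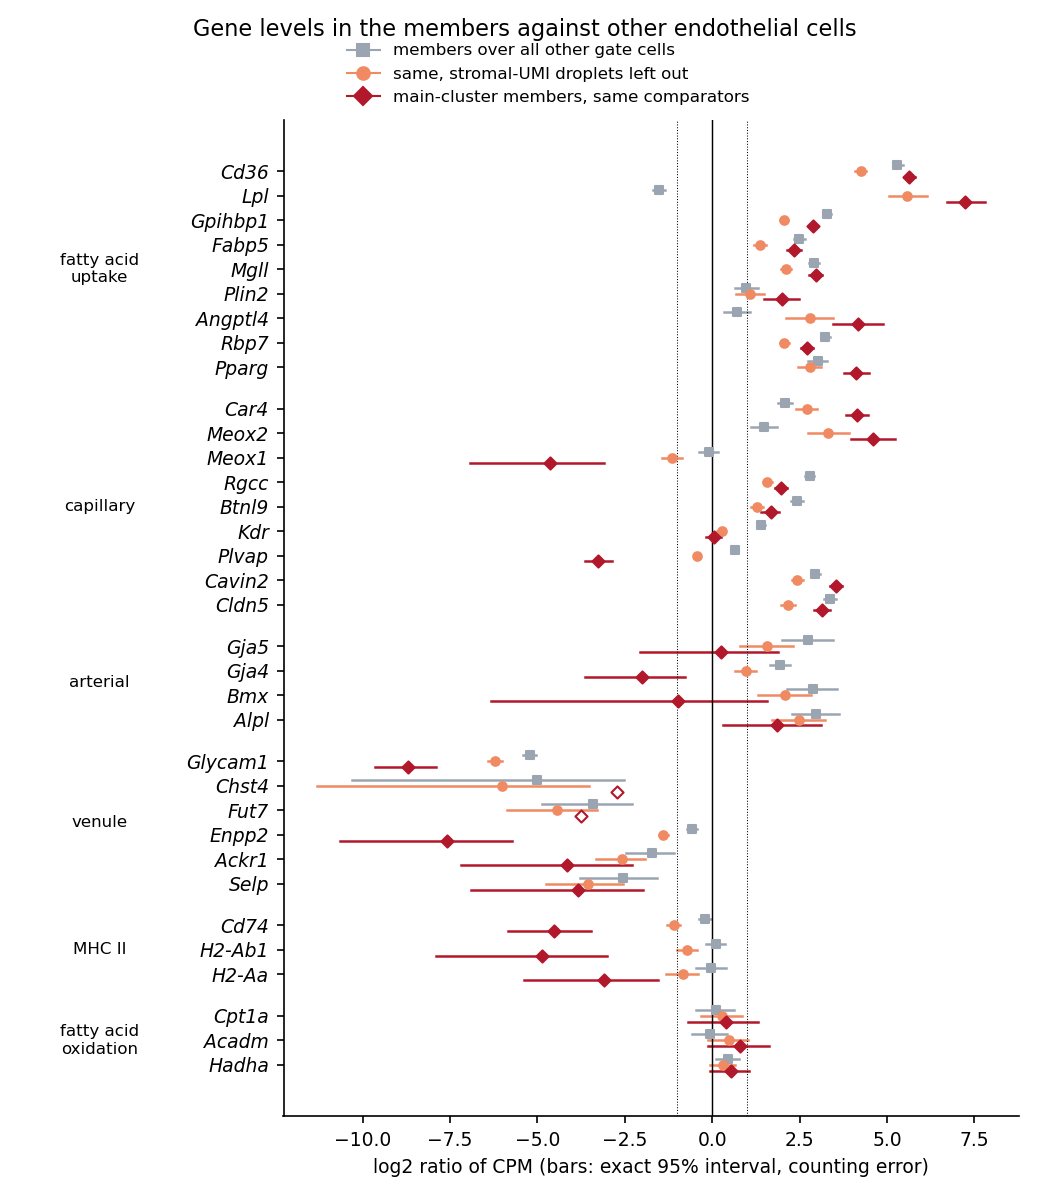
Points are log2 ratios of CPM of summed counts with exact 95% intervals (bars, counting error only) for the 123 members over all 909 comparators (squares), for the 110 over the 524 without stromal UMIs (circles) and for the 50 main-cluster members over the same 524 (diamonds, open where a gene had 0 UMIs and the point is a bound). Lpl lies at -1.52 in the first comparison and at 5.58 and 7.24 in the others, and Meox2 and Meox1 lie on opposite sides of 0 in the last (4.60 and -4.65).

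When only the 50 main-cluster members without stromal UMIs were set against the 524 comparators, 472 of 8697 genes (5.43%) were higher and 805 (9.26%) lower. Of the 16 measured genes of PPARG and its targets, 11 were higher and 1 lower, with a median ratio of 2 against -0.142 over all genes. Cd36 then had a ratio of 5.64 (5.48 to 5.80) and Pparg of 4.13 (3.78 to 4.49). Car4, a carbonic anhydrase of the capillary surface, had a ratio of 4.14 (3.82 to 4.45). Slc28a2, a nucleoside transporter, had 6.18 (5.44 to 6.99), and Cdkn1c, a cell cycle inhibitor, 6.60 (6.09 to 7.14).

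Meox2 and Meox1, the homeodomain genes related to the TCF15 partner, divided the members. Meox2 had 60 UMIs in 34 of the 59 main-cluster cells and 17 UMIs in 6 of the other 64. Meox1 had 3 UMIs in 2 of the 59 and 112 UMIs in 37 of the 64. Meox1 was at 9.93 CPM in the main cluster, 185 CPM in the other members and 259 CPM in the 157 droplets with Fabp4 as their only marker. Meox2 was at 199, 28.1 and 20.4 CPM in the same groups. Of the 17 Meox2 UMIs of the other 64 members, 10 lay in the 2 members of the venule cluster, at 715 CPM. Prox1-positive droplets held Meox2 at 77.5 and Meox1 at 125 CPM, and the fibroblast gate held 56.2 and 9.83 CPM. Main-cluster members against the 524 comparators had a ratio of 4.60 (3.98 to 5.23) for Meox2 and -4.65 (-6.93 to -3.10) for Meox1.

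Some general capillary genes were higher in the members and others were not. Without stromal-UMI droplets, 7 of 28 measured genes were higher in members and 1 was lower, with a median of 0.333, against 2.68% and 4.23% of all genes. For main-cluster members alone 9 of 28 were higher and 7 lower, with a median of 0.131, against 5.43% and 9.26% of all genes. Set against the other members, the main cluster had 6 of 28 higher and 8 lower, against 3.87% and 10.8% of all genes. Rgcc and Btnl9, genes of capillary endothelium, had ratios of 1.58 (1.46 to 1.71) and 1.28 (1.10 to 1.46), while the VEGF receptor gene Kdr had 0.27 (0.15 to 0.38). In the main cluster Plvap, which encodes the diaphragm protein of fenestrae and caveolae, was detected in 9 of 59 cells (192 CPM), against 58 of the other 64 (2191 CPM). Esm1, a gene of activated endothelium, had 1 UMI in the 59 and 60 UMIs in 15 of the 64. The caveolar coat gene Cavin2 was at 1569 CPM in the main cluster and 382 CPM in the other members together. The tight junction gene Cldn5 was at 1129 CPM in the main cluster and 281 CPM in the other members together, but at 1685 CPM in the 11 members of the arterial cluster. Pecam1, one of the genes of the endothelial conditions, was at 556 CPM in the main cluster and 1480.1 CPM in the other members.

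UMIs of the arterial connexin genes lay mostly in members outside the main cluster. Without stromal-UMI droplets, Gja5 had a ratio of 1.57 (0.80 to 2.31), but its UMIs lay in 1 of the 59 main-cluster cells and 10 of the other 64. Gja4 had 5 UMIs in 2 of the 59 cells and 123 UMIs in 27 of the 64. Of 22 measured arterial genes 5 were higher in members and 2 lower, against 2.68% and 4.23% of all genes. For main-cluster members alone 2 of 20 were higher and 3 lower, against 5.43% and 9.26% of all genes.

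Genes of high endothelial venules, the vessels through which lymphocytes enter the node, were low in the members. Without stromal-UMI droplets 0 of 21 measured genes were higher and 13 lower, with a median of -2.02, against 2.68% and 4.23% of all genes. Glycam1, a ligand for L-selectin, was at 262 CPM in members and 19333 CPM in comparators, a ratio of -6.21 (-6.40 to -6.01). The 58 comparators in the venule gate held it at 67275 CPM, and without venule-gated comparators the ratio of members to all others was 1.34. Against those 58 cells alone, the 110 members had 947 of 5827 genes higher (16.3%) and 340 lower (5.83%), with Cd36 at 11.26 and Gpihbp1 at 9.29. Of the 110, 2 passed the venule gate themselves. They were not the 2 members of the venule cluster, which had 0 Glycam1 UMIs. Of the 238 Glycam1 UMIs of the members, 185 lay in 7 cells of the Npr3 cluster. Ackr1, a venular chemokine receptor, had a ratio of -2.58 (-3.32 to -1.92). Enpp2, the autotaxin gene, had 4 UMIs in 3 of the 59 main-cluster cells and 473 UMIs in 46 of the other 64. Of 19 measured venous genes 0 were higher and 7 lower, with a median of -0.741.

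Antigen presentation genes also divided the members. Cd74, the invariant chain of MHC class II, had 8 UMIs in 5 of the 59 main-cluster cells and 246 UMIs in 27 of the other 64. H2-Ab1 had 2 UMIs in 1 of the 59 and 120 UMIs in 27 of the 64. For the main cluster, 5 of 6 measured class II genes were lower than in the 524 comparators and 0 higher, and for all members 2 of 6 were lower. Of all measured genes, 9.26% were lower for the main cluster and 4.23% for all members. The ratio of Cd74 was -4.53 (-5.84 to -3.48) for the main cluster and -1.09 (-1.29 to -0.91) for all members.

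Some immediate early genes were higher in the members than in the 524 comparators. Of 20 measured, 8 were higher and 0 lower in all 110 members, with a median of 0.964, against 2.68% and 4.23% of all genes. In the main cluster 17 were higher and 0 lower, with a median of 1.48, against 5.43% and 9.26% of all genes. Set against the other members, the main cluster had 3 of 19 higher and 0 lower, against 3.87% and 10.8% of all genes. Set against all 909 comparators, 4 of 21 were higher in members and 0 lower, with a median of 0.231, against 6.21% and 13.7%. For the main cluster Fos had a ratio of 1.41 (1.31 to 1.51) and the heat shock gene Hspa1a of 2.36 (2.23 to 2.49). Hspa1a was at 2042 CPM in the main cluster and 3152 CPM in the members of the arterial cluster. The part of these genes in the differences in fatty acid uptake genes was not tested.

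The label of adipose-type endothelium was checked against markers of adipocytes and of other cells. Adipoq, which encodes adiponectin, had 1 UMI in all 123 members and Plin1, the lipid droplet coat gene, 3, with 0 of either in the main cluster, and Lep had 0. Of the other adipocyte genes, Car3 had 26 UMIs in 18 cells and Cfd 11 UMIs in 7 cells, all of them in the main cluster. The 10 adipocyte markers summed to 146 CPM in the main cluster and 11.6 CPM in the other members. Acvr1c and Slc2a4 had 0 UMIs in the members. The fibroblast markers summed to 64 CPM in the 110 members and 46.7 CPM in the 524 comparators. Pdgfra, Col1a1, Col1a2 and Dcn are among these markers and helped define the stromal UMIs. Low sums were thus set in advance by leaving out stromal-UMI droplets, and are no check of the label. Lyve1, the lymphatic hyaluronan receptor, had 1 UMI in the members. Mural markers summed to 92.7 CPM in the main cluster and 13.2 CPM in the other members, with Rgs5 UMIs in 10 of the 59 cells and Pdgfrb at 0. The part of the Car3, Cfd and Rgs5 UMIs in the differences between these groups was not tested.

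The other lists are given for the 110 members and the 524 comparators, where 2.68% of all measured genes were higher and 4.23% lower. At these shares a list of this size would hold few called genes, so a count near 0 is no result about the list. Of the 11 measured genes of the Timp family and the metalloproteinases, 0 were higher and 2 lower: Timp1 had a ratio of -1.94 (-3.59 to -0.68) and Timp2 of -1.88 (-2.46 to -1.36). Timp4, of the same family, was fixed as higher by the rule and is not counted here. Of 14 Notch genes 1 was higher and 0 lower, of 8 VEGF ligand and receptor genes 0 were higher and 0 lower, and of 20 interferon response genes 0 were higher and 0 lower. Of 9 cell cycle genes 0 were higher and 2 lower, the proliferation genes Mki67 and Top2a, with 4 and 5 UMIs in members. Of 17 angiocrine factors 0 were higher and 0 lower. Of 9 caveolar genes 3 were higher, and of 13 junction genes 3, with 0 lower in either list. Of 11 Meox and bHLH genes 2 were higher and 1 lower, and of 25 endothelial transcription factors 3 were higher (Tbx3, Klf2 and Klf4) and 1 lower. Of 18 leukocyte adhesion genes 1 was higher and 3 were lower, and of 18 genes of tip and activated endothelium 2 were higher and 1 lower.

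Among the members, the correlation of Fabp4 with the fatty acid genes varied by gene. Over 123 cells the Spearman correlation of CPM with Fabp4 was 0.813 for Cd36, 0.706 for Timp4, 0.688 for Lpl and 0.652 for Gpihbp1. It was 0.507 for Pparg, 0.462 for Fabp5 and 0.243 for Rbp7, and -0.579 for total UMIs. The cells share a library and differ in depth, and the split between the main cluster and the rest enters these values. Fabp4, Timp4 and Aqp7 also belong to the rule that chose the cells, so the values for Timp4 and Aqp7 are a description only. Within the 59 main-cluster members the values were 0.195 for Cd36, 0.419 for Timp4, 0.284 for Lpl and 0.574 for Gpihbp1, and 0.133 for Fabp5, 0.132 for Pparg and -0.00434 for Aqp7.

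By condition, members were counted as a share of the droplets that met the endothelial conditions. The share was 17.4% in naive nodes (34 of 195, exact interval 12.4 to 23.5%) and 13.2% in 4T1 nodes (27 of 205, 8.86 to 18.6%). It was 7.76% in 67NR nodes (26 of 335, 5.13 to 11.2%) and 12.2% in LPS nodes (29 of 237, 8.35 to 17.1%). The 67NR share was the lowest. The intervals cover counting error of cells only and leave out differences between mice, so they are no test between conditions. Of all 909 comparators, 110, 95 and 72 lay in 3 clusters with no member, where 0, 3 and 0 were free of stromal UMIs. The denominators therefore cannot be read as endothelial cells alone. Droplets with stromal UMIs made up 48.7% of the 67NR denominator and 48.1% of the LPS denominator, against 23.6% in naive and 18.5% in 4T1. With these left out, the shares were 21.5% (15.2 to 28.9%) in naive, 15% (9.93 to 21.3%) in 4T1, 14% (9.15 to 20%) in 67NR and 17.9% (11.6 to 25.8%) in LPS, and all 4 intervals overlapped. Fewer members and a larger number of other droplets in the denominator, endothelial or not, cannot be told apart in a share.

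Main-cluster members alone were 13 of the naive, 18 of the 4T1, 7 of the 67NR and 17 of the LPS cells. Without stromal-UMI droplets their shares were 8.05% (4.23 to 13.6%) in naive, 9.58% (5.58 to 15.1%) in 4T1, 3.49% (1.29 to 7.44%) in 67NR and 9.76% (5.14 to 16.4%) in LPS. The 67NR share was the lowest here as well, on 6 cells, and its interval overlapped each of the others. Of all members, 7 had no hashtag call.

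**Figure D4:**
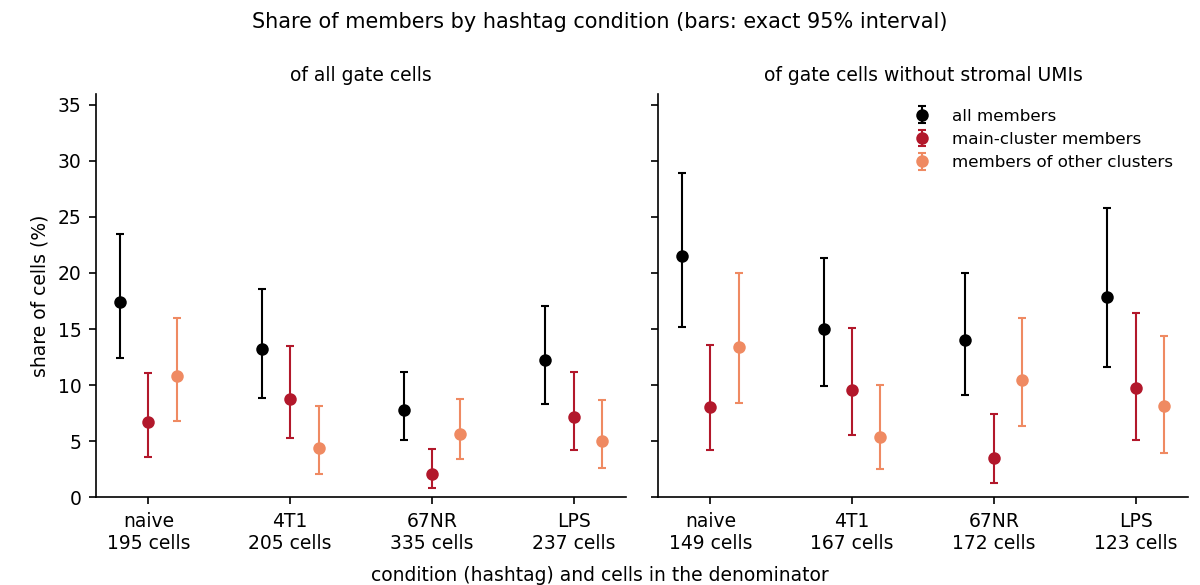
Points are the share of all members, main-cluster members and members of other clusters (percent of cells) in each hashtag condition, with exact 95% intervals as bars. The denominators are all droplets that met the endothelial conditions (left) and those without stromal UMIs (right). The share of all members in 67NR is 7.76% on the left and 14% on the right.

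The levels of main-cluster members are given by condition, with those of the comparators beside them. The 4 markers were fixed as higher by the rule, and the other genes took part in the clustering, so nothing is read from their being higher in each condition. Fabp4 was at 41789 CPM in naive, 42287 in 4T1, 38141 in 67NR and 43623 in LPS cells, and in comparators without stromal UMIs it was at 922 to 1511 CPM. Cd36 was at 4124, 5011, 5192 and 3995 CPM in the same order, against 54.2 to 123 CPM in comparators. Timp4, a gene of the rule, was at 589, 1139, 1122 and 541 CPM in the same order, on 43 to 103 UMIs per condition. The 67NR values rest on 7 cells, and differences between conditions were not tested. Lpl was at 832, 1372, 991 and 774 CPM in the order naive, 4T1, 67NR and LPS, against 4.93 to 11 CPM in comparators. Meox1 was at 12.8 and 22.1 CPM in naive and 4T1 cells and had 0 UMIs in 67NR and LPS cells, against 251 to 317 CPM in comparators. Over all members, Fabp4 was lowest in 67NR, at 9606 CPM against 20760.0 to 23871 CPM, where 7 of 26 members were in the main cluster.

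**Figure D5:**
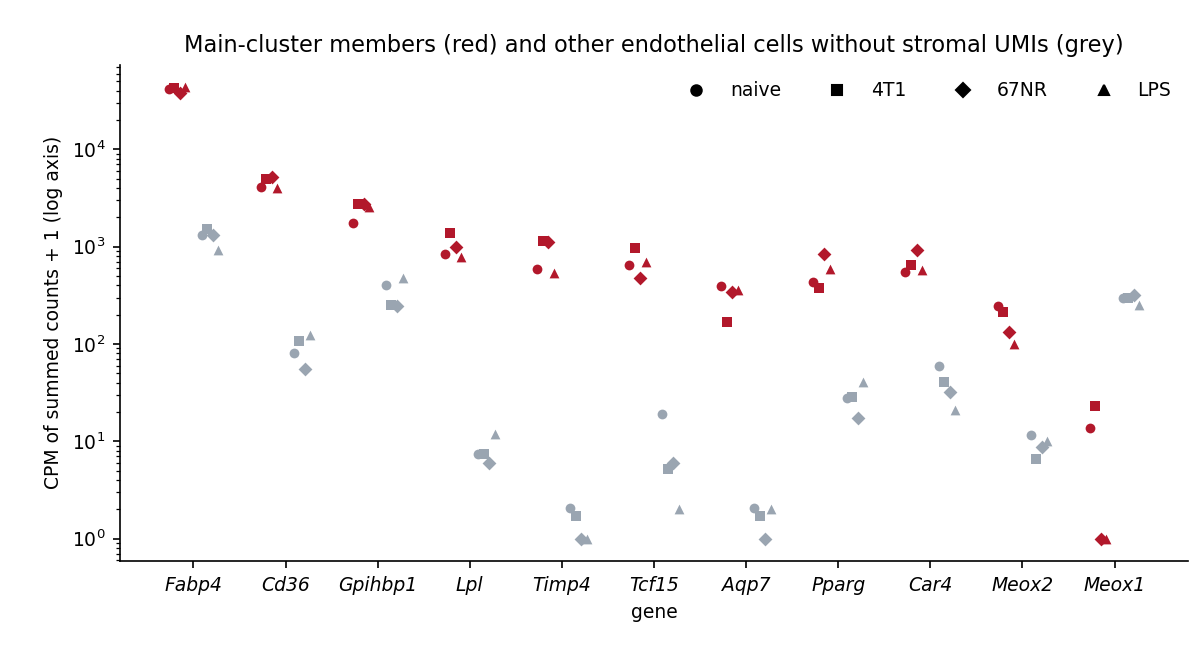
Points are CPM + 1 of summed counts (log axis) of each gene in main-cluster members (red) and in other endothelial cells without stromal UMIs (grey), with 1 symbol per condition. Red lies above grey in all 4 conditions for each gene except Meox1, as for Cd36 (3995 to 5192 CPM against 54.2 to 123 CPM).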

How the data were processed

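The values are raw UMI counts of genes in cells, as the authors deposited them. Cell Ranger 7.0 and the mm10 build are named in the submitters' processing notes, and the annotation, cell calling and intron setting behind the counts were not stated there. Barcode, gene and antibody names were taken from the deposited tables. The members and gene lists were chosen with earlier results of these data known, so no test was run. Counts were summed over groups of cells and scaled to CPM (scipy 1.17.1), and genes needed 50 UMIs over both sums. A sum of 0 was set at a floor of 3 UMIs. A hashtag was called at 10 counts and 3 times the next, which gave 2353 cells. The median leading and second hashtag counts were 1734 and 57. No doublet caller was run, and doublets of 1 condition stayed in. Clusters came from scanpy 1.11.5 and leidenalg 0.10.2 (2000 variable genes, 30 components, 15 neighbours, resolution 1). The stromal-UMI threshold was 2. Named genes are the 4 markers, the 15 highest and 15 lowest ratios, and up to 6 genes of each of 21 lists with the largest ratios, besides genes that define a cell type. Genes named beyond these, such as Cdkn1c, Meox1, Plvap, Esm1, Car3 and Cfd, and the split by main cluster were chosen after their values were seen. The ratio computation was tested on simulated data. Some genes of the lists are not reported here.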

Additional observations from a re-analysis of the deposited data

How the results depend on the processing

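Of 770 gene ratios under 13 alternatives for 61 named genes, 530 stayed within the main interval, 225 moved beyond it and 15 changed sign, in 11 genes. With cells thinned to 2000 UMIs, 276 genes were higher and 747 lower, the 67NR share was 5.06%, and the ratios of Nts, Lpl and Kdr were -0.12, 2.08 and -0.03. With stromal-UMI droplets left out, 241 genes were higher and 380 lower, the shares were 17.4% in all, 14% in 67NR and 17.9% in LPS, and the ratios of Dcn, Col1a1 and Lpl were 0.53, 0.76 and 5.58. Without venule-gated comparators Glycam1 was at 1.34. By the mean of the cells' CPM, 440 genes were higher. Counting only main-cluster members, an alternative chosen after seeing the data, gave shares of 5.72% in all, 8.78% in 4T1, 2.09% in 67NR, 7.17% in LPS and 6.67% in naive. Main-cluster members against cells without stromal UMIs, also chosen after seeing the data, gave 472 genes higher and 805 lower, and ratios of 0.01 for Smpd3, 0.56 for Gpc3, 1.26 for B3galt1, 0.64 for Dcn, 0.09 for Adgrd1, 1.87 for Col1a1, 7.24 for Lpl and -0.99 for Bmx. The causes were not tested. Leaving out each condition in turn gave shares of 10.6 to 13.9%, 616 to 848 genes higher and 1375 to 1510 lower. The other alternatives kept the counts within 1.5 times the main ones. Dropping cells whose second hashtag reached 10, as 2533 of 2540 did, left no member and gave no value, and neither did the rule in the myeloid and stromal library. No paired analysis was possible because the conditions share 1 library, carry no replicate numbers and were not tested.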

Other observations

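Nts, which encodes neurotensin, had the fifth highest ratio of members to all comparators (5.44, 4.81 to 6.12), on 91 UMIs in 3 cells, of which 1 cell held 72 and another 15. All hashtag-called members with Nts were from 67NR nodes, but these were 2 cells with 87 UMIs, or 327 CPM over the members of that condition. Comparators of that condition without stromal UMIs held 17.6 CPM. In a ratio of the means of the cells' CPM the value for Nts was 3.69. The Prox1-positive droplets, which the rule leaves out of the comparators, held Nts at 103 CPM in 28 of 261 cells, against 100.3 CPM in the members.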
